A study of Homo sapiens with 12 samples.

Results

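HN6 and HN30, 2 established oral squamous cell carcinoma lines, were compared through all of the RNA-seq libraries made from them. The members were chosen by the cell line label alone, which took all 12 of the 12 libraries in the series, 6 from HN6 and 6 from HN30. In each line 2 libraries came from cells given a scrambled siRNA (NC), 2 from cells given siFAT1-1 and 2 from cells given siFAT1-2, both directed at the atypical cadherin FAT1. Total RNA was taken 24 h after transfection, poly(A) RNA was sequenced, and each condition was made at 2 separate times, here called repeat 1 and repeat 2. Whether a repeat number stands for the same time in both lines is not given. All libraries therefore came from transfected cells, and no untransfected cells were analysed here. Each line is a single established culture, so a difference between HN6 and HN30 describes these 2 cultures and cannot be told apart from anything else that differed between their wells, and the p-values measure the spread between libraries of these cultures only. In bulk RNA a lower level can mean fewer cells that express a gene or less RNA per cell, which cannot be told apart here.

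Oral squamous carcinoma grows from the stratified epithelium of the mouth. In that tissue TP63 sets the squamous programme, basal cells carry keratins 5 and 14 and hold to the basement membrane through hemidesmosomes and their laminin, and cells that leave the basal layer make envelope precursors such as involucrin. Carcinoma lines can add mesenchymal genes, secreted proteases, NF-kappa B driven cytokines and loss of cell cycle brakes such as CDKN2A to this programme. The comparison asked which of these states the 2 lines held, both with the scrambled siRNA and during FAT1 knockdown (KD).

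Levels are given as CPM, the counts of a gene scaled to the same total in every library, with totals adjusted by the trimmed mean of M values (TMM). Every difference is HN6 over HN30, so a positive log2 fold change means higher in HN6, and its error is the standard error (SE) of the fit over 6 libraries per line. A gene was called when edgeR's quasi-likelihood test with siRNA as a term gave a Benjamini-Hochberg adjusted p below 0.05 and an absolute log2 fold change above 1. The libraries held between 26430049 and 47639010 counts, and 14105 genes passed the filter on low counts.

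Of these genes, 4431 were called, which is the background of 31.4% against which each gene group below is read. There were 2132 higher in HN6 (15.1%) and 2299 higher in HN30 (16.3%), and the median log2 fold change over all genes was 0.001. For 3652 genes (25.9%) every library of one line lay above every library of the other, and 2798 genes met both criteria. A further measure of size is that 525 called genes differed by more than 5 on the log2 scale, 286 toward HN6 and 239 toward HN30.

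Line was the main axis of the data. It took 65.98% of the summed variance of log2 CPM, the siRNA took 14.47%, the differences between repeats took 14.47% and line by siRNA took 5.077%. Libraries of different lines correlated at 0.786 to 0.858 (Pearson's r across genes), and repeats of one condition at 0.945 to 0.990. The lowest repeat correlation was that of the 2 NC libraries of HN6, and HN6 NC repeat 1 was closer to HN6 siFAT1-1 repeat 1 (0.970) than to its own repeat. Without HN6 NC repeat 1, 4632 genes were called.

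**Figure D1:**
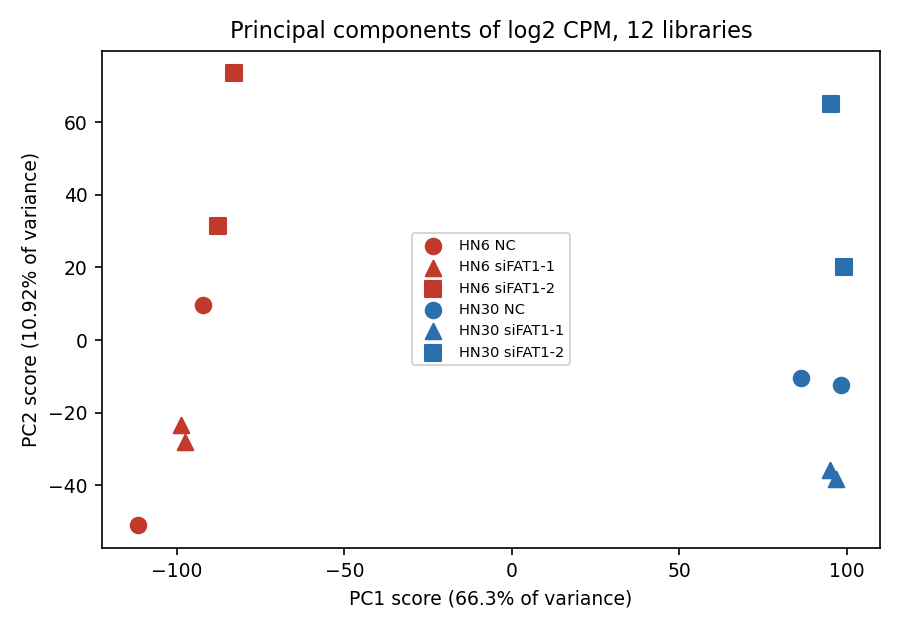
Scores of the 12 libraries on the first and second principal components of log2 CPM over the genes tested, with colour for the line and shape for the siRNA. PC1 (66.3% of the variance) put all 6 HN6 libraries on one side and all 6 HN30 libraries on the other, and PC2 (10.92%) spread the libraries within each line.

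With the NC libraries alone, 1562 of 13672 genes were called (11.4%), 831 higher in HN6 and 731 higher in HN30. These genes were looked up in the 8 KD libraries, which share no library with that comparison. Of the 1539 that could be tested there, 1538 differed in the same direction, 1401 were called again and 0 were called in the opposite direction. Over all genes tested in the KD libraries, 4059 of 13868 were called. The genes looked up had been selected for a large difference between these same cultures, so their agreement is not independent evidence. Of the 317 called genes of the lists below and of the naming rule, 310 could be tested with these 4 NC libraries alone, where 141 kept their call, 168 fell below the threshold and 1, CXCL1, changed sign. The line by siRNA interaction was called for 0 of 14360 genes (0.0%) by edgeR, with 658 at an unadjusted p below 0.05 and a lowest adjusted p of 0.891. DESeq2's likelihood ratio test called 24 interaction genes. One library decided this count, since 684 genes were called by edgeR when HN6 NC repeat 1 was left out and 0 when any other single library was left out.

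**Figure D2:**
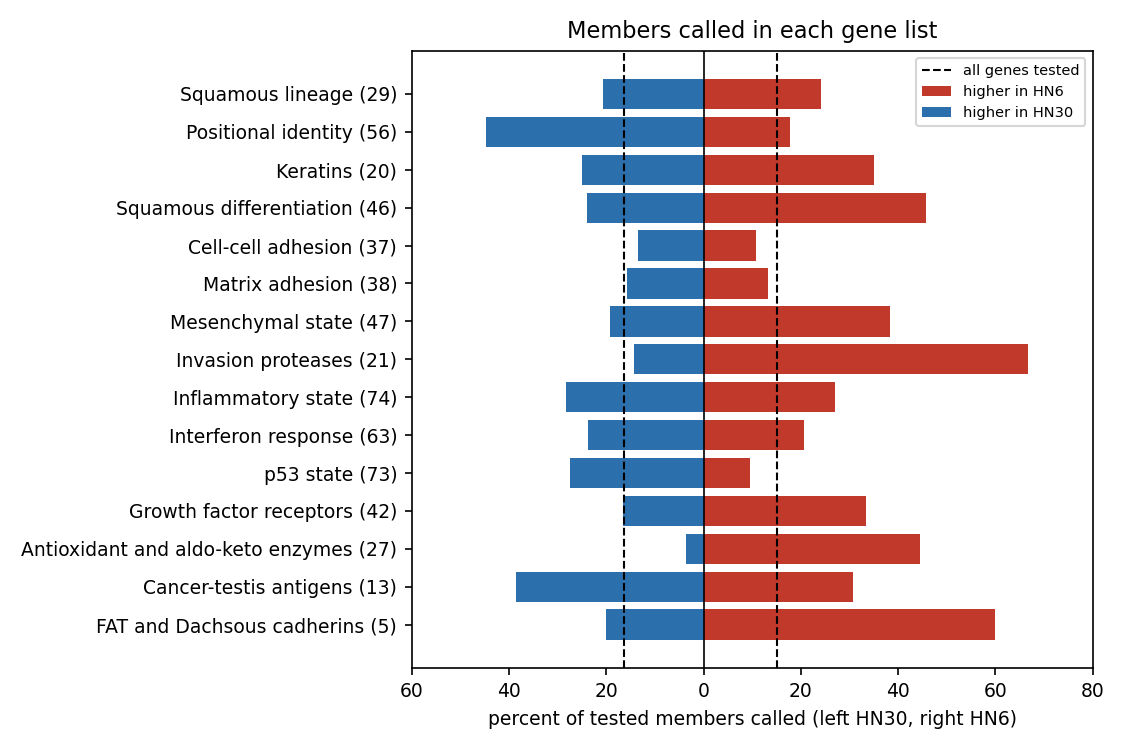
Percent of the tested members of each gene list (number tested in brackets) that were called higher in HN6 (red, to the right) or higher in HN30 (blue, to the left), with dashed lines at the share of all genes tested. Invasion proteases reached 81.0% in all and cell-cell adhesion 24.3%.

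Some genes were read in only one of the lines. With at most 3 counts summed over the 6 libraries of one line and a mean of at least 10 CPM in the other, a rule set after the values were seen, 24 genes were near silent in HN30 and 12 in HN6. Among the former, MT1E, a metallothionein with close relatives, ran from 62.5 to 314 CPM in HN6 with 0 counts in HN30, and CTAG2, a cancer-testis antigen, had 68.1 to 110.2 CPM in HN6 and 0 to 0.0504 CPM in HN30. Against 3 counts over the 6 HN30 libraries MT1E was at least 13334-fold higher in HN6, GALNT5 (a GalNAc transferase) at least 3247-fold, LDOC1 at least 2499.5-fold, ADAMTS1 (a secreted metalloprotease) at least 2219.9-fold and ARMCX3 at least 2186-fold. In the other direction LRFN1 was at least 889.9-fold higher in HN30, ENPP2 (autotaxin) at least 720.2-fold and SLC22A3 (an organic cation transporter) at least 681-fold, all with 0 counts in HN6. ADCY1 (an adenylate cyclase), GLB1L2 and NRN1 had 1, 2 and 2 counts in HN6, and their means in HN30 were 30.2, 38.6 and 33.5 CPM.

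The promoters of 4 genes with a near-complete difference are shown because they mark the lineage, mesenchymal and p53 contrasts described below. FOXE1 and VIM were high in HN6, and FBN2 and CDKN2A were high in HN30. Each runs from 250 bases before to 50 bases after the RefSeq gene start (GRCh38.p14), 5′ to 3′, with CG dinucleotides, the sites of DNA methylation, in capitals. They lie at chr9:97852976-97853275 on the + strand, chr10:17227991-17228290 on the + strand, chr5:128538196-128538495 on the - strand and chr9:21995275-21995574 on the - strand.
FOXE1: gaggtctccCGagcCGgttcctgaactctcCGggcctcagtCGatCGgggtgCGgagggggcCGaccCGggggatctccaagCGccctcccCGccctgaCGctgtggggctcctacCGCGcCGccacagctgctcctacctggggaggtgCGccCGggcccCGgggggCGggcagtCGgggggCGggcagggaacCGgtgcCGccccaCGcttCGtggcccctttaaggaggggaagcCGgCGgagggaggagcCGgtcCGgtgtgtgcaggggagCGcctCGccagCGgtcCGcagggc
VIM: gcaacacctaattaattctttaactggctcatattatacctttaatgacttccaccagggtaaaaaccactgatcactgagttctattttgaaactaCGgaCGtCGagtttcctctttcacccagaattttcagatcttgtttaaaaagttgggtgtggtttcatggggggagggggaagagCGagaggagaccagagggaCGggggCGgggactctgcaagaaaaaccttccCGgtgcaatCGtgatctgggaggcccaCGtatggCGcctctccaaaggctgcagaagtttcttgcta
FBN2: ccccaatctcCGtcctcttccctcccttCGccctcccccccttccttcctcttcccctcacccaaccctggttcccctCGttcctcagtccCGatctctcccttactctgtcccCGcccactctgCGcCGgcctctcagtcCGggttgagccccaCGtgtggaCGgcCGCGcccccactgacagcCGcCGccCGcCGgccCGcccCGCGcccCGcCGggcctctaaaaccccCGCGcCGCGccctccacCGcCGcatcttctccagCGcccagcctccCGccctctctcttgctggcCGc
CDKN2A: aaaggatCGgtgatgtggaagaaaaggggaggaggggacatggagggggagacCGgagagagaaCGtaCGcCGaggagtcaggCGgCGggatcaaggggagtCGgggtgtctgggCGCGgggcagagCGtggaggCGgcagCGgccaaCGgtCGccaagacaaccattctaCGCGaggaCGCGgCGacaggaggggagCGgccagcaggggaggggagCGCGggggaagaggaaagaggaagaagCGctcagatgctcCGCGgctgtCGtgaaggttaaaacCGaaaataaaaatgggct
They held 32, 10, 30 and 28 CG dinucleotides, respectively, where the median over 27305 RefSeq promoter windows was 14 and the quartiles were 3 and 28. Of the genes near silent in HN30, 15 matched a promoter window, with a median of 24 CG, and of those near silent in HN6, 8 matched, with a median of 31.5. Methylation was not measured, and the counts describe the letters only. The CDKN2A window covers the upstream end of that gene, and any other start within the gene is not shown.

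The squamous lineage factors were split between the lines. Of 32 factors listed, 29 passed the filter, and 7 were higher in HN6 and 6 in HN30 (44.8% called, median log2 fold change -0.16). TP63, the master regulator of squamous epithelium, had 27.6 and 36.2 CPM in the HN6 NC libraries and 224 and 252 CPM in the HN30 NC libraries. Over all 6 libraries its lowest, median and highest levels were 27.6, 35.9 and 60.98 CPM in HN6 and 105, 229.9 and 276 CPM in HN30, with no overlap (log2 fold change -2.26 ± 0.26, adjusted p = 1.77e-05). PITX1, a jaw and oral homeobox factor, was likewise lower in HN6, with 13.7 to 28.6 CPM in HN6 and 49.9 to 82.4 CPM in HN30 (log2 fold change -1.74 ± 0.18, adjusted p = 9.29e-06). ZNF750, a p63 target of late differentiation, and IRX4 were also higher in HN30, at -2.57 ± 0.31 (adjusted p = 2.83e-05) and -1.63 ± 0.17 (adjusted p = 1.00e-05).

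FOXE1, a forkhead factor of thyroid and oral epithelium, marked HN6. It had 52.2 and 71.3 CPM in the HN6 NC libraries and 0.0283 and 0 CPM in the HN30 NC libraries, and a single count was read in all of HN30. The ratio over 6 libraries per line was 11174-fold (95% counting interval 2006 to 441340.0). PAX9, a tooth and oral mucosa factor, and MAF were higher in HN6 at 1.56 ± 0.27 (adjusted p = 3.88e-04) and 5.97 ± 0.88 (adjusted p = 1.21e-04). GRHL2, a grainyhead factor that holds epithelial identity, overlapped between the lines with 46.1 to 83.7 CPM in HN6 and 51.97 to 87.1 CPM in HN30 and was not called (log2 fold change 0.05 ± 0.18, adjusted p = 0.841). SOX2, a squamous amplicon gene, was below the filter, with 0 to 0.0554 CPM in HN6 and 0 to 0.113 CPM in HN30.

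HOX genes, which record the body position of a cell's origin, differed by cluster. Of 39 listed, 36 were tested, and 18 were higher in HN30 and 6 in HN6 (66.7% called, median log2 fold change -0.99). All of the called genes of the HOXA, HOXB and HOXC clusters were higher in HN30, and the 6 called HOXD genes were higher in HN6. The HOXA cluster lies on chromosome 7, where 37.3% of all tested genes were higher in HN30 and 9.85% in HN6. The part of the chromosome in the HOXA differences was not tested. HOXA9 had 2.49 and 3.55 CPM in the HN6 NC libraries and 35.95 and 45.2 CPM in the HN30 NC libraries (log2 fold change -4.33 ± 0.31, adjusted p = 3.55e-07), and HOXA7 had 4.23 and 5.75 CPM against 85.8 and 63.99 CPM (log2 fold change -3.57 ± 0.18, adjusted p = 1.94e-08). HOXC10 was read at 0 to 0.366 CPM in HN6 and 13.1 to 27.6 CPM in HN30. On the other side HOXD10 had 43.5 and 51.01 CPM in the HN6 NC libraries and 14.9 and 25.4 CPM in the HN30 NC libraries (log2 fold change 1.22 ± 0.17, adjusted p = 6.33e-05), and HOXD13 was higher in HN6 at 2.71 ± 0.50 (adjusted p = 6.14e-04).

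**Figure D3:**
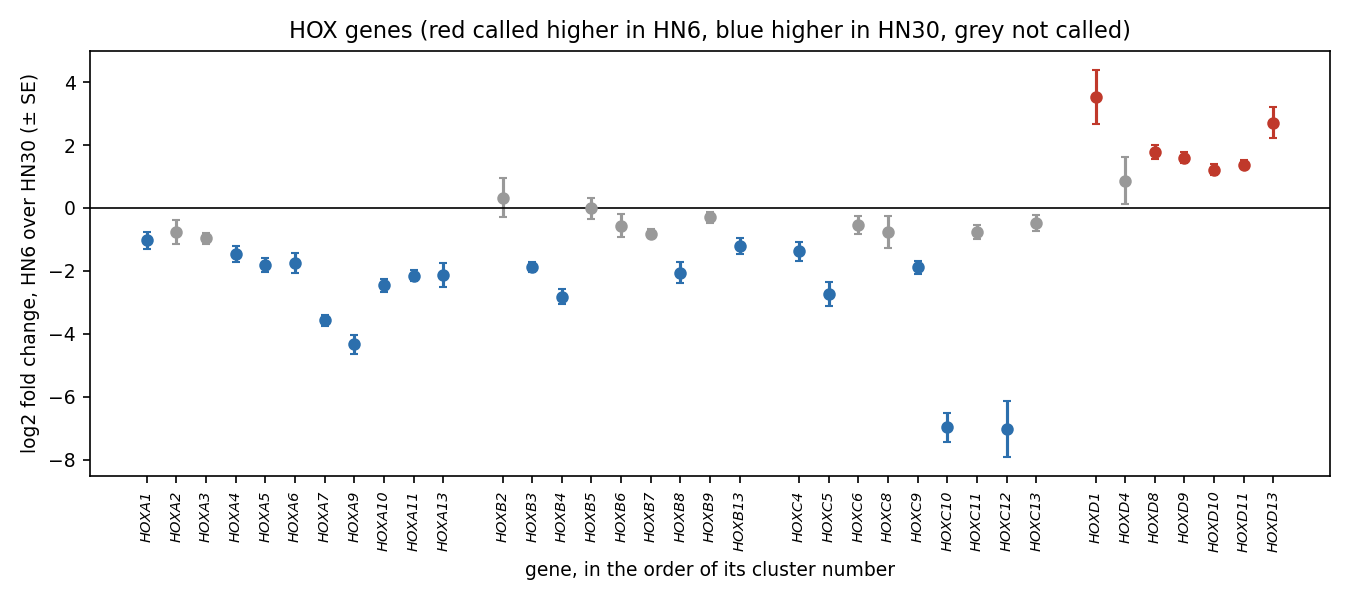
Log2 fold change of HN6 over HN30 (error bars ± SE, 6 libraries per line) for the HOX genes tested, ordered by cluster and number, with red for called higher in HN6, blue for called higher in HN30 and grey for not called. The HOXD genes lie above 0, while the called genes of the other clusters lie below it.

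Other homeobox and placode genes followed no single direction, with 4 higher in HN6 and 7 in HN30 of 20 tested. DLX6, a jaw patterning gene, and TBX1, a pharyngeal arch gene, were higher in HN30 at -6.75 ± 0.62 (adjusted p = 2.89e-06) and -3.67 ± 0.19 (adjusted p = 2.68e-08), and TBX1 ran at 1.02 to 2.42 CPM in HN6 and 13.8 to 25.6 CPM in HN30. EYA1, ALX1 and SIX2 were higher in HN6 at 6.83 ± 0.74 (adjusted p = 1.06e-05), 4.63 ± 0.48 (adjusted p = 7.32e-06) and 2.44 ± 0.47 (adjusted p = 8.56e-04), all at low levels (at most 5.25 CPM).

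The keratins, the intermediate filaments of epithelium, differed between the lines gene by gene. Of 27 listed, 20 were tested, with 7 higher in HN6 and 5 in HN30 (60.0% called, median 0.81). KRT19, a keratin of simple and regenerating epithelium, had 659 and 929 CPM in the HN6 NC libraries and 0.566 and 1.34 CPM in the HN30 NC libraries, and the lines did not overlap (log2 fold change 9.45 ± 0.31, adjusted p = 9.41e-10). KRT7, a simple epithelial keratin, had 2354 and 3487 CPM in the HN6 NC libraries and 106 and 97.3 CPM in the HN30 NC libraries (log2 fold change 5.06 ± 0.23, adjusted p = 8.93e-09). The simple epithelial pair KRT8 and KRT18 was read in both lines and fell short of the fold threshold, at 0.84 ± 0.16 (adjusted p = 6.79e-04) and 0.79 ± 0.14 (adjusted p = 5.68e-04). Per kilobase of exon, the NC mean of KRT18 was 1082 CPM in HN6 and 582 CPM in HN30, against 339.8 and 0.407 CPM for KRT19 and 217 and 158 CPM for KRT5.

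Among the basal keratins KRT5 overlapped between the lines, with lowest, median and highest levels of 289.9, 1112 and 1986 CPM in HN6 and 90.7, 654 and 1225 CPM in HN30 (log2 fold change 0.82 ± 0.38, adjusted p = 0.0829). In both lines the lowest library was siFAT1-2 repeat 1, and without HN6 NC repeat 1 the difference was 1.01 and was called. KRT14, the usual partner of KRT5, was low in HN6 at 0.222 to 2.42 CPM and close to 0 in HN30, where its highest library read 0.0747 CPM (log2 fold change 6.96 ± 0.77, adjusted p = 1.35e-05). KRT17, a basal and wound keratin, ran at 172 to 1223 CPM in HN6 and 7.84 to 114 CPM in HN30 (log2 fold change 3.70 ± 0.34, adjusted p = 2.54e-06). KRT6B, induced in wounds, was higher in HN30 (log2 fold change -4.69 ± 0.58, adjusted p = 3.07e-05), while KRT6A was not called (log2 fold change -0.26 ± 0.33, adjusted p = 0.519). KRT81, a hair-type keratin, had 1322 to 2047 CPM in HN6 and 2974 to 6518 CPM in HN30 (log2 fold change -1.60 ± 0.14, adjusted p = 2.39e-06) and was the highest keratin of the HN30 NC libraries per kilobase, at 2604 CPM. The KRT6 genes, the KRT81 group and the KRT14, KRT16 and KRT17 group each hold near-identical sequences, so the split of reads within each is uncertain. The mucosal keratins were scarce, with KRT13 at 0.166 to 1.02 CPM in HN6 and 0 to 0.493 CPM in HN30 (log2 fold change 1.68 ± 0.68, adjusted p = 0.0514), called in 9 of 22 alternatives, and KRT4 below the filter at no more than 0.113 CPM.

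**Figure D4:**
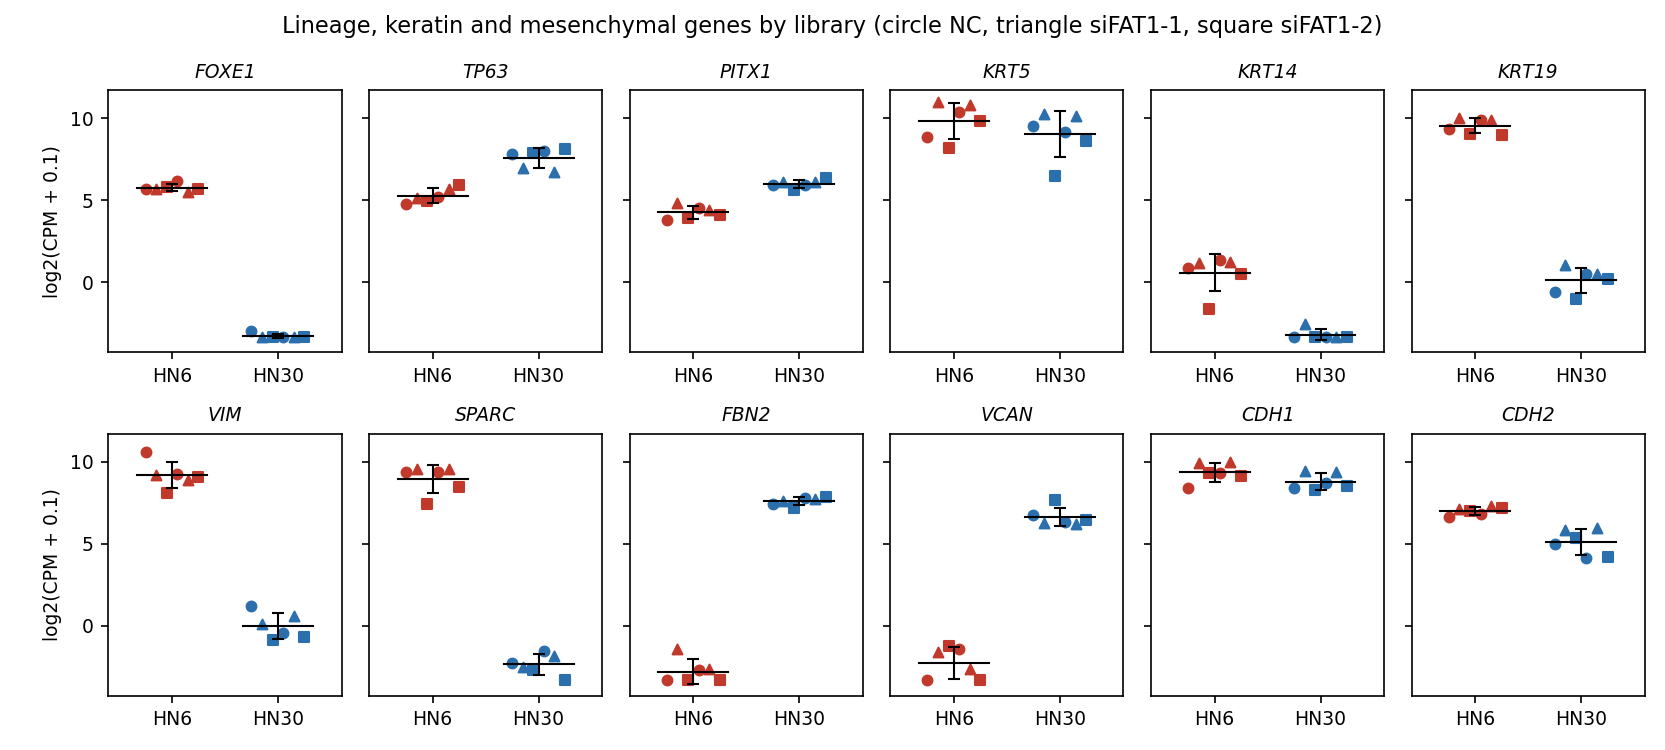
Levels as log2(CPM + 0.1) of 12 lineage, keratin, adhesion and mesenchymal genes in each library of HN6 (red) and HN30 (blue), with a black line at the mean of 6 libraries and bars of ± 1 SD. KRT5 and CDH1 overlap between the lines, while FOXE1, KRT19, VIM, SPARC, FBN2 and VCAN do not.

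Squamous differentiation genes were called more often than the background, in 69.6% of the 46 members tested out of 65, and more often toward HN6 (21) than HN30 (11), with a median log2 fold change of 1.16. In the NC libraries alone 9 members were called and the median was 0.61, with 0.34 in repeat 1 and 1.09 in repeat 2. The kallikreins, proteases of shedding epithelium, were among the HN6 genes. KLK5 had 96.8 and 261 CPM in the HN6 NC libraries and 1.92 and 0 CPM in the HN30 NC libraries (log2 fold change 9.80 ± 1.07, adjusted p = 1.15e-05), and KLK6 had 48.8 and 96.5 CPM against 7.73 and 1.14 CPM (log2 fold change 5.19 ± 0.51, adjusted p = 4.84e-06). MAL, a membrane protein of mature mucosa, ran at 26.1 to 100.2 CPM in HN6 and 0 to 0.710 CPM in HN30 (log2 fold change 7.74 ± 0.52, adjusted p = 2.33e-07), and TMPRSS11E, a mucosal serine protease, was higher in HN6 at 4.11 ± 0.46 (adjusted p = 1.31e-05). The envelope precursor IVL (involucrin) had 4.33 and 3.38 CPM in the HN6 NC libraries and 0.962 and 0.404 CPM in the HN30 NC libraries, and its lines overlapped (log2 fold change 2.63 ± 0.43, adjusted p = 2.59e-04). Of the 15 envelope precursors tested, 7 were higher in HN6 and 1 in HN30. The 6 libraries of each line were apart for only 1 of them, CALML3, against 25.9% of all genes tested. SPRR3 was below the filter, with no library above 0.0602 CPM.

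A different set of differentiation genes was higher in HN30. PI3 (elafin), an inhibitor of neutrophil elastase, had 0.409 and 0.366 CPM in the HN6 NC libraries and 92.5 and 22.7 CPM in the HN30 NC libraries (log2 fold change -7.11 ± 0.43, adjusted p = 9.91e-08). The calcium-binding alarmin S100A9 had 2.22 and 6.73 CPM against 46.9 and 40.5 CPM (log2 fold change -3.09 ± 0.41, adjusted p = 5.86e-05), its partner S100A8 lay at -3.34 ± 0.63 (adjusted p = 7.05e-04), and S100A14 ran at 8.32 to 37.4 CPM in HN6 and 111 to 174 CPM in HN30 (log2 fold change -2.48 ± 0.29, adjusted p = 1.93e-05). S100A7 (psoriasin), the connexin GJB6 and the serpin SERPINB4 were close to 0 in HN6 and low in HN30, at -5.88 ± 0.74 (adjusted p = 3.66e-05), -5.89 ± 0.63 (adjusted p = 1.02e-05) and -5.41 ± 0.79 (adjusted p = 1.20e-04). SERPINB4 shares most of its sequence with SERPINB3, so reads may be split between them.

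Cell-cell adhesion had the lowest share called among the 15 lists plotted, with 9 of 37 members (24.3%, below the background), 4 toward HN6 and 5 toward HN30, and a median of -0.03. E-cadherin (CDH1) had 342 and 645 CPM in the HN6 NC libraries and 331 and 420.1 CPM in the HN30 NC libraries, and its libraries overlapped (log2 fold change 0.59 ± 0.15, adjusted p = 0.00625). P-cadherin (CDH3) and desmoglein 3 (DSG3), the desmosomal cadherin of stratified epithelium, were not called either, at 0.59 ± 0.14 (adjusted p = 0.00298) and 0.64 ± 0.24 (adjusted p = 0.035). HN6 was higher in NECTIN2 and the tight junction receptor LSR, at 1.53 ± 0.12 (adjusted p = 1.00e-06) and 1.51 ± 0.12 (adjusted p = 6.55e-07). HN30 was higher in NECTIN1 and TJP3, at -1.43 ± 0.19 (adjusted p = 5.79e-05) and -1.96 ± 0.22 (adjusted p = 1.52e-05). Desmocollin 3 (DSC3) lay at -1.01 ± 0.19 (adjusted p = 6.21e-04), a call lost in 12 of 22 alternatives, among them the fits without either NC library of HN6, either NC library of HN30, or HN6 siFAT1-1 or siFAT1-2 repeat 1, which gave -0.890 to -0.995.

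Matrix adhesion gave a similar count, with 11 of 38 members called (28.9%), 5 toward HN6 and 6 toward HN30. The hemidesmosome genes and those of its laminin, which anchor basal cells, were present in both lines. Of 11 tested, 1 was called, the hemidesmosomal collagen COL17A1, which had 167 and 278 CPM in the HN6 NC libraries and 32.7 and 21.7 CPM in the HN30 NC libraries (log2 fold change 2.76 ± 0.24, adjusted p = 1.67e-06). Integrin beta 4 (ITGB4) ran at 365 to 1319 CPM in HN6 and 308 to 1198 CPM in HN30 (log2 fold change 0.15 ± 0.21, adjusted p = 0.576).

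Of the other integrins 7 of 17 were called, and of the other laminins and proteoglycans 3 of 10, shares of 41.2% and 30.0% that were not tested against the hemidesmosome genes. Integrin beta 3 (ITGB3), part of the vitronectin receptor, ran at 8.07 to 65.01 CPM in HN6 and 0.328 to 2.05 CPM in HN30 (log2 fold change 4.91 ± 0.63, adjusted p = 3.96e-05). ITGA4 was read at 0.341 to 3.16 CPM in HN6 and had 0 counts in HN30, at least 100.4-fold higher. HN30 was higher in ITGB2, the beta chain of leukocyte integrins, with 0.582 to 2.56 CPM in HN6 and 12.7 to 98.4 CPM in HN30 (log2 fold change -5.16 ± 0.33, adjusted p = 1.44e-07), and in ITGB8 at -2.31 ± 0.28 (adjusted p = 2.91e-05). LAMA4, a laminin chain of vessels and mesenchyme, had 14.6 to 70.9 CPM in HN30 against 2 counts over the 6 HN6 libraries.

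Mesenchymal genes were called in 57.4% of the 47 tested, 18 toward HN6 and 9 toward HN30, with a median of 0.65. Vimentin (VIM), the mesenchymal intermediate filament, had 1546 and 619 CPM in the HN6 NC libraries and 2.18 and 0.656 CPM in the HN30 NC libraries. Its lowest, median and highest levels were 278, 554 and 1546 CPM in HN6 and 0.462, 0.814 and 2.18 CPM in HN30 (log2 fold change 9.33 ± 0.43, adjusted p = 1.06e-08). SPARC, a secreted matrix glycoprotein, was likewise close to 0 in HN30, with 169.7 to 746 CPM in HN6 and 0 to 0.252 CPM in HN30 (log2 fold change 12.19 ± 0.37, adjusted p = 6.20e-10). N-cadherin (CDH2) had 98.9 and 114 CPM in the HN6 NC libraries and 31.8 and 17.8 CPM in the HN30 NC libraries and no overlap (log2 fold change 1.88 ± 0.24, adjusted p = 3.64e-05), so HN6 held more N-cadherin message together with E-cadherin at a level not called different from HN30. Fibronectin (FN1) ran at 6665 to 13295 CPM in HN6 and 866 to 2494 CPM in HN30 (log2 fold change 2.38 ± 0.28, adjusted p = 1.84e-05), and the collagen VI chains COL6A1 and COL6A2 lay at 2.81 ± 0.24 (adjusted p = 1.77e-06) and 5.08 ± 0.45 (adjusted p = 2.00e-06). AXL, a receptor tyrosine kinase of invasive cells, had 839 and 1138 CPM against 133 and 140.5 CPM for the NC libraries of HN6 and HN30 (log2 fold change 2.85 ± 0.23, adjusted p = 8.54e-07).

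Of the transcription factors of epithelial-mesenchymal transition, 5 of 8 tested were higher in HN6 and 1 in HN30. Over all genes 15.1% were higher in HN6. For 3 of the 8 factors every HN6 library lay above every HN30 library. SNAI1 ran at 11.7 to 48.3 CPM in HN6 and 2.00 to 7.10 CPM in HN30 (log2 fold change 2.77 ± 0.43, adjusted p = 1.70e-04), ZEB1 at 0.704 to 6.21 CPM in HN6 and 0.321 to 1.68 CPM in HN30 (log2 fold change 2.08 ± 0.51, adjusted p = 0.00409), and TWIST2 was read only in HN6, at up to 4.88 CPM and at least 201-fold higher. PDPN (podoplanin), a protein of invasive tumour edges, also had 0 counts in HN30 and was at least 213-fold higher in HN6. The ZEB1 call was lost in the NC libraries alone. TWIST1 was not called, at 0.37 ± 0.36 (adjusted p = 0.402), and TCF4 went toward HN30 at -3.73 ± 0.30 (adjusted p = 1.07e-06).

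HN30 had mesenchymal matrix genes of its own. Fibrillin 2 (FBN2), a microfibril protein, had 0 and 0.0563 CPM in the HN6 NC libraries and 173 and 222 CPM in the HN30 NC libraries (log2 fold change -11.38 ± 0.53, adjusted p = 1.22e-08), and versican (VCAN), a matrix proteoglycan, had 0 and 0.282 CPM against 109 and 80.5 CPM (log2 fold change -9.29 ± 0.58, adjusted p = 1.29e-07). T-cadherin (CDH13) ran at 3.82 to 23.2 CPM in HN6 and 23.8 to 139 CPM in HN30 (log2 fold change -2.31 ± 0.25, adjusted p = 9.71e-06), and TGFBI at 580.4 to 974 CPM in HN6 and 1484 to 2845 CPM in HN30 (log2 fold change -1.24 ± 0.19, adjusted p = 1.86e-04). Fibrillin 1 (FBN1) went the other way from FBN2, at 1.58 ± 0.31 (adjusted p = 9.28e-04).

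Over all 12 libraries the invasion proteases had the largest share called among the lists of 20 or more tested members. It was 17 of 21 tested (81.0%), 14 toward HN6 and 3 toward HN30, with a median of 1.28. With any 1 library left out 13 to 16 members were called, so this share rests on the full set of libraries. The NC libraries alone called 4. The membrane protease MMP14, which activates MMP2, had 1968 and 1033 CPM in the HN6 NC libraries and 399 and 145 CPM in the HN30 NC libraries (log2 fold change 2.26 ± 0.29, adjusted p = 3.65e-05). MMP2 itself ran at 72.2 to 246 CPM in HN6 and 3.35 to 31.7 CPM in HN30 (log2 fold change 3.15 ± 0.39, adjusted p = 3.32e-05). MMP7 (matrilysin) was read at 10.2 to 32.6 CPM in HN6 and 0 to 0.117 CPM in HN30 (log2 fold change 8.90 ± 0.59, adjusted p = 2.10e-07), and MMP9 varied widely within both lines, with 15.8 to 541 CPM in HN6 and 0 to 41.2 CPM in HN30 (log2 fold change 5.83 ± 1.11, adjusted p = 7.78e-04). The cathepsins CTSB and CTSL were higher in HN6 at 1.20 ± 0.20 (adjusted p = 3.22e-04) and 1.24 ± 0.13 (adjusted p = 9.05e-06). Only 6 of the 14 genes higher in HN6 kept the lines apart in every library, where 2798 of all 4431 called genes did. SERPINB5 (maspin) was higher in HN30 at -1.002 ± 0.14 (adjusted p = 8.32e-05), at the edge of the fold threshold. That call was lost in 11 of 22 alternatives, of which 7 left out one library, namely HN6 NC repeat 2, either siFAT1-1 library of HN6 or of HN30, or siFAT1-2 repeat 1 of HN6 or of HN30.

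The inflammatory genes were called in 55.4% of the 74 tested, 20 toward HN6 and 21 toward HN30 (median -0.19). The median turned in the NC libraries alone, to 0.15 with 14 members called, and lay at 0.31 in NC repeat 1. CXCL5, a neutrophil chemokine, was an HN30 gene, with 0.136 and 0.113 CPM in the HN6 NC libraries and 225 and 93.5 CPM in the HN30 NC libraries (log2 fold change -10.41 ± 0.41, adjusted p = 4.05e-09). CXCL8 (interleukin-8), from the same gene cluster on chromosome 4, ran at 56.3, 63.9 and 191 CPM in HN6 and 24.7, 30.5 and 86.1 CPM in HN30 and went toward HN6 (log2 fold change 1.11 ± 0.34, adjusted p = 0.0138). CXCL1 lay at -1.17 ± 0.38 (adjusted p = 0.0198) over 12 libraries but at 0.23 in the NC libraries, which had 191 and 129.5 CPM against 183 and 88.2 CPM for HN6 and HN30. Neither the CXCL8 nor the CXCL1 call held in every alternative. The CXCL8 call was lost in 6 of 22 alternatives, with values of 0.719, 0.949 and 0.996 without HN6 NC repeat 1, HN30 NC repeat 1 or HN30 NC repeat 2. The CXCL1 call turned in the NC libraries and was lost without HN6 siFAT1-1 repeat 1, siFAT1-1 repeat 2 (-1.007) or siFAT1-2 repeat 1 (-0.972).

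These chemokines share a kappa B-like word close to the start of transcription, shown here because their levels differed between the lines to such unequal extents although all lie in 1 cluster. The windows are chr4:73869143-73869442 on the + strand, chr4:73740319-73740618 on the + strand and chr4:73998628-73998927 on the - strand (RefSeq, GRCh38.p14, 250 bases before to 50 after the start), and capitals mark GGAATTTCC or its reverse complement GGAAATTCC, searched on both strands.
CXCL1: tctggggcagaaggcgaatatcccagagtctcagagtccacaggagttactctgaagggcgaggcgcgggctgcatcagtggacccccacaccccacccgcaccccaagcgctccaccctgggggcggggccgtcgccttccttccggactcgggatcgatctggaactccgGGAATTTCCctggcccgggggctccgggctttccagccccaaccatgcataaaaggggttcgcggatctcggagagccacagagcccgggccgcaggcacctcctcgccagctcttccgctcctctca
CXCL8: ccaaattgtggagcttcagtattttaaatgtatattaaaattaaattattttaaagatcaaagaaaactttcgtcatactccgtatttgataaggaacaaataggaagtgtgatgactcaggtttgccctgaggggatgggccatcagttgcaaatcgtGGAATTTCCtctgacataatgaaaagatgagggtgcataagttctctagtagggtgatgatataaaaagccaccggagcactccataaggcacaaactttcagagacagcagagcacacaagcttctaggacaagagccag
CXCL5: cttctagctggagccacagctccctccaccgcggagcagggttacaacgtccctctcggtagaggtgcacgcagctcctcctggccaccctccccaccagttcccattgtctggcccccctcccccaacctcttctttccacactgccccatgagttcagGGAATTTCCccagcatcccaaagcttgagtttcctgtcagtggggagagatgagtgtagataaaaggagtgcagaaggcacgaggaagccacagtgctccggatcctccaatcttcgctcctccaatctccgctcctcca
The matches begin 78, 91 and 90 bases before the start, in the order printed. The word occurred in 129 of 27305 promoter windows (0.472%). Of 16 further inflammatory genes searched, 7 held 1 match each. These were CXCL10, which was called toward HN6 at 2.77 ± 0.80 (adjusted p = 0.0105), and CXCL2, CXCL3, CXCL6, CXCL11, NFKBIA and ICAM1, which were not called. The 9 with 0 matches were CCL20, IL6, IL1A, IL1B, IL24, CSF2, IL11, TNFAIP3 and LCN2, among them genes called in both directions. A match is a description of letters, not a measured binding site.

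Interleukin-1 genes were more abundant in HN30. IL1A had 115 and 22.4 CPM in the HN6 NC libraries and 209 and 231 CPM in the HN30 NC libraries (log2 fold change -2.17 ± 0.36, adjusted p = 3.05e-04), and IL1B had 83.9 and 41.3 CPM against 385 and 141 CPM (log2 fold change -1.91 ± 0.28, adjusted p = 1.27e-04), both with some overlap between the lines. For IL1B the siFAT1-1 libraries were the lowest 2 of HN30, at 32.998 and 32.7 CPM, and these overlapped HN6. The natural antagonist IL1RN went the other way, with 6.66 to 9.55 CPM in HN6 and 0.117 to 2.18 CPM in HN30 (log2 fold change 4.17 ± 0.58, adjusted p = 7.63e-05), as did the receptor IL1R1 with 34.7 to 62.7 CPM in HN6 and 4.89 to 14.1 CPM in HN30 (log2 fold change 2.64 ± 0.16, adjusted p = 8.57e-08) and the IL-36 antagonist IL36RN at 3.47 ± 0.57 (adjusted p = 2.84e-04). IL6 was not called and overlapped, at 15.8 to 45.7 CPM in HN6 and 19.5 to 54.8 CPM in HN30 (log2 fold change -0.38 ± 0.22, adjusted p = 0.166).

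Of 19 cytokines tested, 10 were higher in HN6 and 5 in HN30 (78.9% called, against 31.4% of all genes). The macrophage factor CSF1 had 111 and 112 CPM in the HN6 NC libraries and 18.4 and 18.7 CPM in the HN30 NC libraries and a small spread (log2 fold change 2.60 ± 0.11, adjusted p = 7.78e-09). IL11, an IL-6 family cytokine, ran at 32.5 to 88.3 CPM in HN6 and 5.45 to 18.6 CPM in HN30 (log2 fold change 2.51 ± 0.29, adjusted p = 1.66e-05), and IL24 at 4.78 to 10.3 CPM in HN6 and 0 to 0.216 CPM in HN30 (log2 fold change 6.79 ± 0.58, adjusted p = 1.50e-06). CX3CL1 (fractalkine) was low in HN6 and near 0 in HN30, at 6.31 ± 0.70 (adjusted p = 1.26e-05). The granulocyte factor CSF3 was instead an HN30 gene, with 0.499 to 10.2 CPM in HN6 and 13.2 to 105 CPM in HN30 (log2 fold change -3.89 ± 0.50, adjusted p = 4.60e-05), as was lymphotoxin beta (LTB) at -3.49 ± 0.50 (adjusted p = 9.92e-05).

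The feedback and effector genes of NF-kappa B were called in 11 of 24 (45.8%, against 31.4% of all genes), 9 of them toward HN30. The acute phase genes SAA1 and SAA2, whose reads may be split by near identity, ran at 52.9 to 109 CPM in HN6 and 119 to 479 CPM in HN30 (log2 fold change -1.997 ± 0.21, adjusted p = 8.56e-06) and 2.51 to 8.13 CPM in HN6 and 18.5 to 103 CPM in HN30 (log2 fold change -3.62 ± 0.45, adjusted p = 3.54e-05). Lipocalin 2 (LCN2), an iron-binding defence protein, had 23.4 and 69.2 CPM against 161 and 411 CPM for the NC libraries of HN6 and HN30 (log2 fold change -2.64 ± 0.41, adjusted p = 1.78e-04), complement C3 lay at -1.15 ± 0.12 (adjusted p = 7.64e-06) and the mitochondrial dismutase SOD2 at -1.65 ± 0.21 (adjusted p = 3.52e-05). The feedback inhibitor TNFAIP3 (A20) went toward HN6 at 1.31 ± 0.21 (adjusted p = 1.95e-04), while NFKBIA, NFKB1 and RELA were not called, at -0.41 ± 0.13 (adjusted p = 0.0206), -0.43 ± 0.15 (adjusted p = 0.0299) and 0.67 ± 0.15 (adjusted p = 0.00285).

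Interferon and antigen presentation genes were called in 44.4% of 63, 13 toward HN6 and 15 toward HN30 (median 0.01). Their libraries overlapped in most cases. All 6 libraries of one line lay apart for 4 of the 63 toward HN6 and 2 toward HN30, against 25.9% of all genes tested in either direction. MX1, a classical interferon target, ran at 89.2 to 1174 CPM in HN6 and 55.6 to 830.1 CPM in HN30 and was not called (log2 fold change 0.34 ± 0.51, adjusted p = 0.592). IFI27 was higher in HN6 with 13.4 to 189.5 CPM in HN6 and 0.693 to 6.90 CPM in HN30 (log2 fold change 4.35 ± 0.42, adjusted p = 4.04e-06), and BST2 (tetherin) was higher in HN30 with 0 to 12.7 CPM in HN6 and 60.3 to 203 CPM in HN30 (log2 fold change -5.21 ± 0.79, adjusted p = 1.48e-04). CD74, the class II invariant chain, was read at 65.95 to 171 CPM in HN6 and 0 to 0.962 CPM in HN30 (log2 fold change 8.41 ± 0.53, adjusted p = 1.34e-07). Beta 2 microglobulin (B2M), the light chain of class I molecules, lay at -1.02 ± 0.11 (adjusted p = 7.75e-06), a call lost in 6 of 22 alternatives. It lay at -0.96 to -0.99 without HN6 siFAT1-2 repeat 1, HN30 NC repeat 1, HN30 siFAT1-1 repeat 1 or HN30 siFAT1-2 repeat 2.

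The p53 group was called in 37.0% of its 73 members, all of them tested and close to the background in share, 7 toward HN6 and 20 toward HN30, with a median of -0.45. MDM2, the ubiquitin ligase that removes p53 and is itself a p53 target, had 79.4 and 30.9 CPM in the HN6 NC libraries and 406 and 1247 CPM in the HN30 NC libraries. Its lowest, median and highest levels were 30.9, 56.4 and 79.4 CPM in HN6 and 406, 716 and 1247 CPM in HN30 (log2 fold change -3.72 ± 0.32, adjusted p = 1.65e-06). CDKN2A, which encodes the inhibitors p16 and p14ARF, was close to 0 in HN6 with 0.205 to 0.668 CPM in HN6 and 35.5 to 52.1 CPM in HN30 (log2 fold change -6.64 ± 0.31, adjusted p = 1.12e-08). Counts per gene do not separate p16 from p14ARF message.

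Of 16 tested neighbours of CDKN2A on 9p, 6 were called toward HN30 (PLIN2, DENND4C, KLHL9, IFNE, MTAP and TUSC1), 1 toward HN6 (ELAVL2, 2.34 ± 0.33, adjusted p = 8.63e-05) and 9 were not called, among them FOCAD, MLLT3 and RPS6. MTAP, its neighbour, was lower in HN6 but still read, at 11.5 to 19.2 CPM in HN6 and 53.6 to 94.4 CPM in HN30 (log2 fold change -2.27 ± 0.16, adjusted p = 4.26e-07), and CDKN2B, on the other side, was not called (log2 fold change 0.49 ± 0.28, adjusted p = 0.152), with 13.9 to 62.4 CPM in HN6 and 5.66 to 55.4 CPM in HN30. KLHL9, farther toward the telomere, lay at -1.26 ± 0.19 (adjusted p = 1.60e-04), and TUSC1, toward the centromere, was again close to 0 in HN6, with 0 to 0.222 CPM in HN6 and 8.60 to 15.2 CPM in HN30 (log2 fold change -6.31 ± 0.45, adjusted p = 3.68e-07). PLIN2, a lipid droplet protein gene on the same arm, ran at 0 to 0.318 CPM in HN6 and 97.5 to 170.1 CPM in HN30 (log2 fold change -9.82 ± 0.44, adjusted p = 9.37e-09). On chromosome 9 as a whole, 22.2% of the tested genes were called toward HN30 and 14.8% toward HN6. Genomic copy number was not measured, and the neighbours of CDKN2A were chosen after their values were seen.

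CDKN1A (p21), the main cell cycle effector of p53, was not called (log2 fold change -0.44 ± 0.57, adjusted p = 0.526). Its lowest, median and highest levels were 286, 610.3 and 1082 CPM in HN6 and 343, 746 and 4002 CPM in HN30, and the highest HN30 value came from siFAT1-2 repeat 1. The same library was highest in HN30 for TNFSF9 and for GDF15, a stress cytokine, which read 622 CPM there and at most 148 CPM in the other HN30 libraries. GDF15 was not called over 12 libraries (log2 fold change -1.51 ± 0.64, adjusted p = 0.061) and was called without this library, at -1.03, and without HN6 NC repeat 2 or HN30 NC repeat 1, at -1.81 in each. Of the 18 cell death targets 6 were higher in HN30 and 0 in HN6, and the 33.3% called was close to the 31.4% of all genes. The decoy receptor TNFRSF10D ran at 12.99 to 35.5 CPM in HN6 and 63.8 to 231 CPM in HN30 (log2 fold change -2.27 ± 0.31, adjusted p = 6.82e-05), and TNFSF9 lay at -3.93 ± 0.53 (adjusted p = 6.21e-05), while the pore-forming BAX and the BH3-only gene BBC3 were not called, at -0.03 ± 0.24 (adjusted p = 0.929) and 0.31 ± 0.31 (adjusted p = 0.407).

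Other p53 targets were higher in HN30 too. CYFIP2, an actin regulator induced by p53, had 0 and 0.197 CPM in the HN6 NC libraries and 33.6 and 19.4 CPM in the HN30 NC libraries (log2 fold change -8.35 ± 0.63, adjusted p = 5.63e-07), CDIP1, a p53-induced death gene, ran at 3.94 to 5.98 CPM in HN6 and 23.9 to 42.7 CPM in HN30 (log2 fold change -2.64 ± 0.19, adjusted p = 3.39e-07), and RRM2B (p53R2), the p53-inducible ribonucleotide reductase subunit, lay at -2.45 ± 0.38 (adjusted p = 1.67e-04) and CCNG1 (cyclin G1) at -1.45 ± 0.17 (adjusted p = 2.25e-05). Against these, GADD45A, a stress and DNA damage gene, was higher in HN6 with 92.2 to 218 CPM in HN6 and 21.97 to 49.03 CPM in HN30 (log2 fold change 2.05 ± 0.17, adjusted p = 1.16e-06), as were SESN2, PLK2 and NINJ1 at 1.34 ± 0.17 (adjusted p = 4.39e-05), 1.79 ± 0.27 (adjusted p = 1.48e-04) and 1.77 ± 0.27 (adjusted p = 1.74e-04), and TNFRSF19 at 6.06 ± 0.49 (adjusted p = 9.46e-07).

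**Figure D5:**
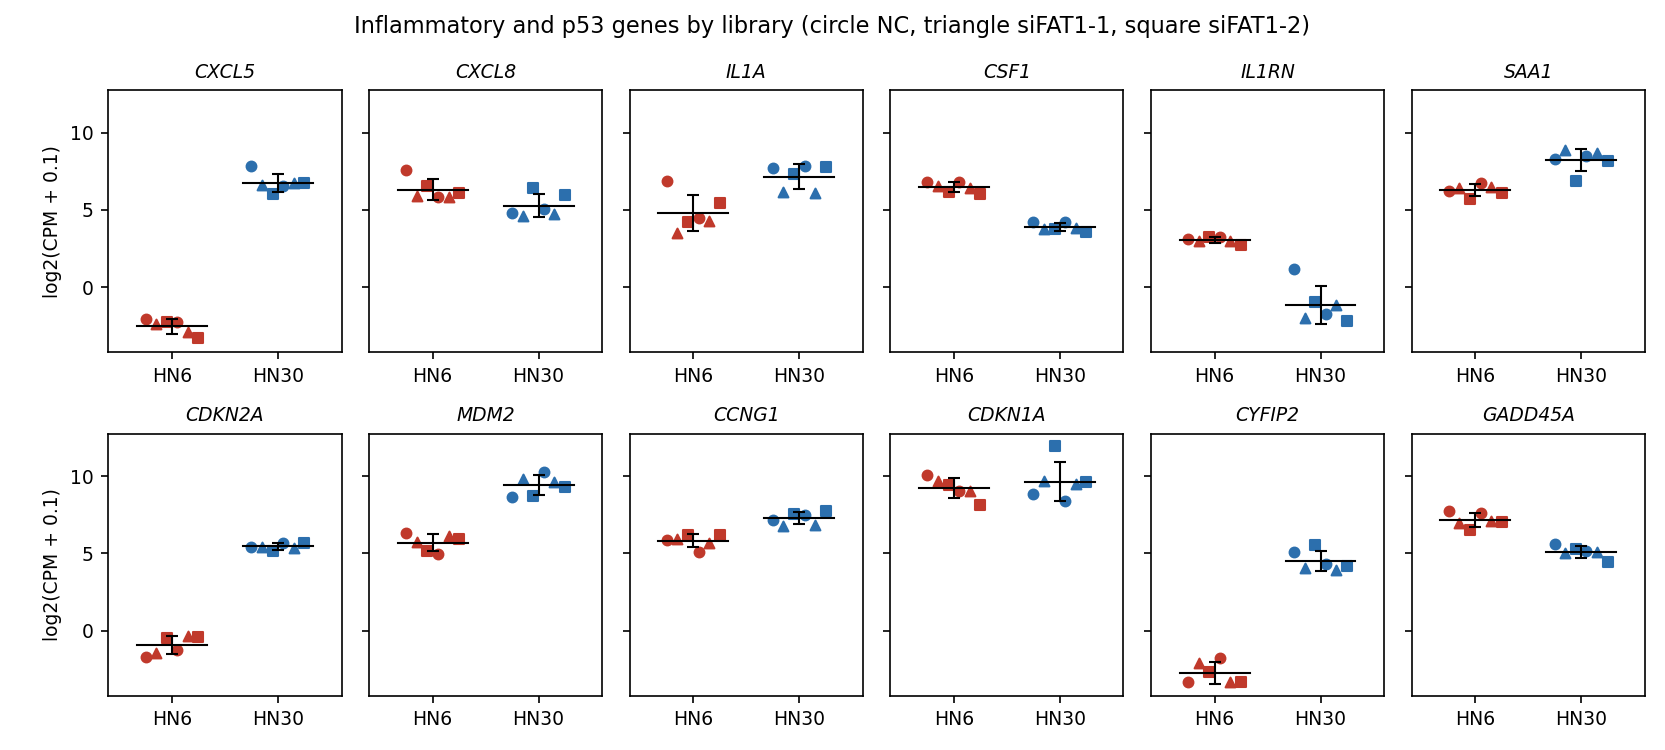
Levels as log2(CPM + 0.1) of 6 inflammatory genes (upper row) and 6 p53 genes (lower row) in each library of HN6 (red) and HN30 (blue), with a black line at the mean of 6 libraries and bars of ± 1 SD. CXCL5, CDKN2A, MDM2, CCNG1 and CYFIP2 are higher in all HN30 libraries, CSF1, IL1RN and GADD45A in all HN6 libraries, and CXCL8, IL1A and CDKN1A overlap.

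Growth factor genes were called in 21 of the 42 tested, with 7 receptors higher in HN6 against 1 in HN30. EGFR, the main receptor target in oral carcinoma, had 4501 and 3349 CPM in the HN6 NC libraries and 1088 and 1187 CPM in the HN30 NC libraries and no overlap (log2 fold change 2.11 ± 0.16, adjusted p = 6.42e-07). FGFR2, the epithelial FGF receptor, was higher in HN6 at 5.05 ± 0.65 (adjusted p = 4.19e-05), and FGFR1 was higher in HN30 with 3.37 to 10.4 CPM in HN6 and 20.8 to 68.7 CPM in HN30 (log2 fold change -2.89 ± 0.30, adjusted p = 9.01e-06). The 21 ligands tested split, with 7 toward HN6 and 6 toward HN30 (61.9% called). Epiregulin (EREG), an EGFR ligand, had 6.35 and 2.14 CPM in the HN6 NC libraries and 313 and 314 CPM in the HN30 NC libraries (log2 fold change -6.38 ± 0.31, adjusted p = 1.45e-08), and its relative betacellulin (BTC), FGF2 and PDGFA were also higher in HN30, at -4.23 ± 0.37 (adjusted p = 2.04e-06), -4.41 ± 0.36 (adjusted p = 1.03e-06) and -3.14 ± 0.22 (adjusted p = 3.47e-07). Neuregulin 1 (NRG1), a ligand of ERBB3, and IGF2 were higher in HN6, at 2.93 ± 0.31 (adjusted p = 9.83e-06) and 5.89 ± 0.67 (adjusted p = 1.67e-05).

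FAT1, the target of the siRNAs, had 56.8 and 66.7 CPM in the HN6 NC libraries and 13.6 and 14.7 CPM in the HN30 NC libraries and ran at 7.61 to 66.7 CPM in HN6 and 4.86 to 14.7 CPM in HN30 over all libraries (log2 fold change 1.32 ± 0.26, adjusted p = 9.17e-04). In the KD libraries alone the difference was 0.89 (adjusted p = 0.0192) and was not called. FAT4 followed FAT1 toward HN6, at 3.75 ± 0.40 (adjusted p = 1.04e-05), and FAT2, the FAT cadherin of stratified epithelium, was higher in HN30, with 8.39 and 24.8 CPM against 95.3 and 183 CPM in the NC libraries of HN6 and HN30 (log2 fold change -2.35 ± 0.47, adjusted p = 0.00112).

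Antioxidant and aldo-keto enzymes went mostly toward HN6, with 12 higher in HN6 and 1 in HN30 of 27 tested (48.1%, median 0.94). AKR1C1 and AKR1C3, steroid and carbonyl reductases, ran at 5.62 to 43.1 CPM in HN6 and 0.408 to 1.39 CPM in HN30 (log2 fold change 4.66 ± 0.45, adjusted p = 4.30e-06) and 16.9 to 42.1 CPM in HN6 and 1.68 to 6.20 CPM in HN30 (log2 fold change 3.48 ± 0.36, adjusted p = 7.85e-06), and AKR1C2 and ALDH3A1 lay at 4.21 ± 0.86 (adjusted p = 0.00123) and 3.84 ± 0.47 (adjusted p = 2.73e-05). The AKR1C genes are near-identical copies. TXNRD1, a thioredoxin reductase, was higher in HN6 at 1.13 ± 0.13 (adjusted p = 2.23e-05), whereas NFE2L2 (NRF2) was not called, at 0.70 ± 0.27 (adjusted p = 0.0396). ALDH1A3, a retinaldehyde dehydrogenase, was the one gene toward HN30, at -1.65 ± 0.25 (adjusted p = 1.56e-04).

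Cancer-testis antigens, genes of the germ line that tumours can switch on, were called in 9 of the 13 tested out of 33 listed. This was 69.2%, against 31.4% of all genes, with 4 toward HN6 and 5 toward HN30. MAGEA10 and MAGEA1 ran at 0 to 0.136 CPM in HN6 and 38.2 to 82.6 CPM in HN30 and 0 to 0.0636 CPM in HN6 and 29.1 to 57.3 CPM in HN30, PRAME at 1.36 to 3.13 CPM in HN6 and 51.6 to 82.8 CPM in HN30, and CT83 was read only in HN30, at least 184-fold higher. MAGEA11 and MAGEA9 had 0 counts in HN30 and were at least 1574-fold and 82.02-fold higher in HN6. MAGEB2 was read in both lines, at 80.02 to 115 CPM in HN6 and 54.01 to 118 CPM in HN30 (log2 fold change 0.10 ± 0.17, adjusted p = 0.632), and the MAGEA genes, like CTAG2 and its relatives, are near-identical copies whose reads may be split.

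For the squamous label 8 fixed markers were read, all of which passed the filter. That filter spans both lines, so passing it is no check of each line, and KRT14 was near 0 in HN30. The summed level of the markers ran from 1789 to 6035 CPM in HN6 and from 1254 to 3885 CPM in HN30. The sum includes KRT5, ITGB4 and CDH1, with means of 1126, 945 and 696 CPM in HN6 and 691, 860 and 465 CPM in HN30. In HN6 its range took in that of the glandular sum given below, so the sums alone do not set the label. Markers of non-epithelial cell types were low in sum, at 69.9 to 164 CPM in HN6 and 32.0 to 76.3 CPM in HN30 for 9 fibroblast genes. Of these, COL1A1 was higher in HN6 at 1.59 ± 0.25 (adjusted p = 1.96e-04) and FAP in HN30 at -6.27 ± 0.45 (adjusted p = 3.68e-07). The 7 leukocyte genes summed to 71.8 to 124 CPM in HN6 and 24.4 to 36.1 CPM in HN30, with the lysosomal gene CD68 at 69.1 to 121 CPM in HN6 and 16.1 to 31.3 CPM in HN30 (log2 fold change 2.08 ± 0.20, adjusted p = 4.31e-06) and CD14 higher in HN30 (log2 fold change -1.83 ± 0.22, adjusted p = 2.37e-05). The pan-leukocyte gene PTPRC had 0 counts in HN6 and 1 in HN30. Endothelial, melanocyte and muscle lists summed to at most 9.13, 3.97 and 2.02 CPM in any library, and TYR and MYH2 had 0 counts throughout. The 7 simple or glandular markers summed to 1794 to 3671 CPM in HN6 and 59.0 to 162 CPM in HN30, a sum that is almost wholly KRT7 (1783 to 3647 CPM in HN6 and 27.9 to 106 CPM in HN30). The other 3 tested markers, MUC1, MUC5AC and CDX2, were called the other way, toward HN30. The list median was -4.15 from the fit and -3.20 with the floor of 3 counts for genes at 0. MUC5AC and CDX2 had 0 counts in HN6 and at most 0.757 CPM in HN30. The part of other cells in the results was not tested.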

How the data were processed

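RNA-seq was made from HN6 and HN30 cells transfected with NC, siFAT1-1 or siFAT1-2, with 2 repeats each. The deposited table held raw read counts per gene that the authors obtained with HISAT2 and featureCounts on hg38, per the labels. Versions, annotation and strand setting were not given in the sources used here, so reads of overlapping antisense genes cannot be separated. Of 12 value columns, 0 were left out. The table listed 19225 entries with 26430049 to 47639010 counts per library. Of the entries, 18278 matched a GENCODE gene name, 756 matched one through an older symbol in RefSeq and 191 matched neither way. GENCODE also gave the exon lengths and gene positions. Chromosome Y genes, XIST and TSIX stayed in the fits and in the totals over all genes. They were left out of the named genes, the near-silent genes and the counts by chromosome.

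Groups came from the labels. Genes were filtered with filterByExpr (minimum count 10), scaled by TMM and fitted with edgeR 4.0.16 (R 4.3.3) by quasi-likelihood with siRNA and line as terms, and p-values were adjusted by Benjamini and Hochberg. The SE was the absolute log2 fold change divided by the square root of F. A ratio against a line with 0 counts used a floor of 3 counts over its 6 libraries. Intervals and floors cover counting error only. limma 3.58.1 and DESeq2 1.42.0 gave alternative tests. The fit was also run on counts simulated from the gene means and library sizes. Every simulated gene had the same dispersion, and no siRNA or repeat effect was put in. That run is therefore no check of the calls in these data. Alternatives changed the scaling, the filter, the siRNA term, a replicate block, the test, the thresholds and the libraries used. The DESeq2 likelihood ratio test was added after the data had been seen.

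Named genes were, per list and direction, up to 4 called genes with the largest change, no overlap between the lines and a mean of at least 1 CPM in one line, plus 8 per direction over all genes at 10 CPM, a fixed set of identity genes (such as TP63, KRT5, CDH1, VIM and IL6), and further list members. Some genes of the lists are not reported here. The lists and named genes were chosen with earlier results of these data known, so no list is independent evidence.

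The repeat numbers were checked for pairing. Same-numbered libraries of different conditions deviated together with correlations of -0.0644 to 0.471. Between HN6 and HN30 the values were -0.0108 for NC, -0.0644 for siFAT1-1 and 0.471 for siFAT1-2. The siFAT1-2 repeats thus deviated together across the lines, while those of NC and siFAT1-1 did not. With these mixed values and no statement in the labels, the numbers were not taken to pair the lines.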

Additional observations from a re-analysis of the deposited data

Results flagged for a closer look

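Within each line, 193 groups of 6 libraries were examined with Dixon's ratio for a highest or lowest library standing apart, and 17 (8.81%) exceeded its critical value. All were single high libraries. The ratio was taken on CPM without a log and over libraries of different siRNAs. The nominal rate of 1 in 20 therefore does not apply, and the share was not compared with chance.

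HN6 NC repeat 1 stood above the other HN6 libraries for VIM (1546 CPM, next 619), IL1A (115.0 CPM, next 42.8), IL6 (45.7 CPM, next 25.99) and CXCL8 (191.5 CPM, next 93.0). HN30 NC repeat 1 stood above the other HN30 libraries for IL1B (385 CPM, next 141), CXCL5 (225.5 CPM, next 106), PI3 (92.5 CPM, next 40.9), KLK6 (7.73 CPM, next 2.35), IL1RN (2.18 CPM, next 0.404) and KLK5 (1.925 CPM, next 0.0616). HN30 siFAT1-2 repeat 1 stood apart for CDKN1A (4002 CPM, next 810.5), TNFSF9 (230.2 CPM, next 86.7), VCAN (200.5 CPM, next 109), FAP (37.6 CPM, next 22.1), TMPRSS11E (15.1 CPM, next 3.99) and AKR1C3 (6.205 CPM, next 2.91). HN30 NC repeat 2 stood apart for SERPINB4 (5.22 CPM, next 1.31).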

How the results depend on the processing

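Over 22 alternatives of scaling, filter, terms, test and libraries, the 317 called genes of the lists and the naming rule changed sign in 1 case. This was CXCL1 in the NC libraries alone (0.23, against -1.17). A further 139 kept their call in every alternative where they could be tested. Some of these, such as KRT14 with 21, could not be tested in all 22. Between 4271 and 4632 genes were called when 1 library was left out. The replicate block lost 2 of the 317 calls and the replicate block by siRNA lost 5, with 4452 and 4529 genes called, so the pairing made no count move by over 1.5 times.

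The NC libraries alone, with 2 per line, called 1562 genes (831 toward HN6, 731 toward HN30). Without a fold threshold 8023 were called (4054 and 3969), and above 2 on the log2 scale 1884 (954 and 930). The interaction count was 24 by DESeq2's likelihood ratio test and 0 to 684 in edgeR with 1 library left out.

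In the NC libraries alone the members called were 6 for lineage, 12 for positional (median -1.05), 9 for differentiation (median 0.61), 5 for cell-cell adhesion, 5 for matrix adhesion, 4 for proteases, 14 for inflammatory (median 0.15, against -0.19), 8 for interferon, 13 for p53, 12 for growth factor, 8 for antioxidant and 2 for FAT genes (median 2.11). Above 2 on the log2 scale they were 6 for lineage, 21 for positional, 0 for cell-cell adhesion, 6 for matrix adhesion, 17 for mesenchymal, 9 for proteases, 23 for inflammatory, 13 for interferon, 12 for p53, 13 for growth factor and 7 for antioxidant genes. Without a fold threshold they were 19 for cell-cell adhesion, 21 for matrix adhesion, 44 for p53 and 20 for antioxidant genes. The cancer-testis median was 0.0861 without the siRNA term. With 1 library left out the medians ran from -1.05 to -0.78 (positional), 1.13 to 1.58 (proteases) and -0.16 to 0.11 (interferon). The causes were not tested.

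The fits rest on 6 libraries per line, of which 2 share each siRNA. Genes under the filter, such as SOX2, KRT4 and SPRR3, could not be compared at this depth.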

Other observations

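The called genes were unevenly spread over chromosomes. Chromosome 7 had 670 tested genes with a median log2 fold change of -0.64, and 250 of them (37.3%) were higher in HN30 against 66 (9.85%) in HN6. Chromosomes 13, 5 and 8 followed, with 30.0%, 28.5% and 26.8% of their genes higher in HN30. Chromosome 17 leaned the other way, with a median of 0.55 over 872 genes and 208 (23.9%) higher in HN6 against 64 (7.34%) in HN30, and chromosomes 14 and X had 26.3% and 23.8% of their genes higher in HN6. Over all genes these shares were 15.1% for HN6 and 16.3% for HN30. DNA copy number was not measured, and no test was made of these shares.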
